A study of Mus musculus with 18 samples.

Results

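The first 2 days of aggregate culture with cytokines were followed in mouse cells that lack the TET proteins. The comparison set the 2 libraries of day 2 TKO cells with cytokines against the 2 libraries of TKO EpiLCs, which are 4 of the 18 libraries of the series, and covered all genes. EpiLCs (epiblast-like cells) are made from mouse embryonic stem cells of the line E14Tg2a, first held in the naive state with LIF and a pair of kinase inhibitors and then moved to activin A and FGF, and they serve as the starting cells of the aggregates. TKO cells lack the open reading frames of Tet1, Tet2 and Tet3, which were cut out with CRISPR/Cas9 in the same parental line, and they are 1 clone. For PGCLC (primordial germ cell-like cell) induction, EpiLCs were aggregated in suspension with BMP4, BMP8a, SCF, LIF and EGF, the cytokines, and these aggregates were collected whole and unsorted at day 2. The 4 libraries thus share the genotype and differ in the day, the aggregation, the medium and the cytokines together. For comparison, libraries of TKO aggregates without cytokines at day 2, of TKO aggregates with cytokines at day 6, and of wild-type EpiLCs and wild-type aggregates without cytokines at day 2 were used, with 2 libraries each. A wild-type group with cytokines at day 2 was not analysed here, so in any comparison of the TKO change with the wild-type change the genotype and the cytokines cannot be told apart.

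PGCs, the precursors of eggs and sperm, arise in the mouse from epiblast cells that receive BMP signals from the neighbouring extraembryonic tissue. BMP acts through SMAD1 and SMAD5 on genes such as Id1, and the transcription factors PRDM1 (BLIMP1), PRDM14 and TFAP2C (AP2γ) then hold back the somatic programme and bring back parts of the naive pluripotency programme that the epiblast had given up. LIF acts through STAT3, SCF through the receptor KIT, and EGF through ERBB receptors, and these factors sustain the early germ cells. The TET enzymes oxidise 5-methylcytosine, a step on 1 path to the removal of DNA methylation, and genes of the later germline are among those kept silent by methylated promoters.

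RNA was depleted of ribosomal RNA and sequenced in paired reads, and the authors deposited exon fragment counts per gene. Totals were 18917787 and 18665577 counts in TKO EpiLCs and 16224333 and 15462086 in day 2 TKO cells with cytokines, within the range of 11286050 to 41257861 over all libraries. The ribosomal RNA locus Rn45s held between 16.2% and 47.6% of the counts of a library. Levels are given as normalised counts (counts divided by the size factors of DESeq2), with replicate 1 before replicate 2 in each group, and n = 2 in every group. Fold changes were tested in edgeR by quasi-likelihood and adjusted by Benjamini-Hochberg over the 16582 of 25239 genes that had enough counts, and the standard error is approximated from the F statistic. A value after "log2" in parentheses is a log2 fold change. The labels number the replicates but do not say that they came from separate cultures, while figure legends of the paper call them biological replicates. The p-values measure the spread between libraries only, estimated over all 9 groups together. Each library of the groups compared was left out in turn, and where this ended the call of a named gene the adjusted p of that fit is given. There E1 and E2 stand for replicates 1 and 2 of the TKO EpiLCs, D1 and D2 for those of day 2 with cytokines, N1 and N2 for those of day 2 without, and L1 and L2 for those of day 6 with cytokines.

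Tet1 (chr10:62804570-62887469, GRCm38, as are all coordinates here), Tet2 (chr3:133463677-133545136) and Tet3 (chr6:83362373-83457208) were looked at first, as the genes that were targeted. Tet1 had 737 and 966 normalised counts in TKO EpiLCs and 623 and 589.6 in day 2 TKO cells with cytokines, against 6227 and 6036 in wild-type EpiLCs. The Tet3 values were 131 and 159 in TKO EpiLCs, 62.3 and 54.6 at day 2 and 821 and 1019 in wild-type EpiLCs. Both genes thus stood lower in every TKO library of the comparison than in wild-type EpiLCs. For Tet2 the TKO EpiLC libraries had 31.8 and 102, the day 2 libraries 296 and 399.7 and the wild-type EpiLCs 186 and 125. The counts cover whole genes, so reads from the untranslated exons that the deletions leave in place are included, and what part of these counts they made up was not tested. Between the TKO EpiLCs and day 2, Tet2 rose (log2 fold change 2.39, standard error 0.48, adjusted p = 0.00387), Tet3 fell (log2 fold change −1.30, standard error 0.35, adjusted p = 0.0197; adjusted p = 0.091 without D1, 0.114 without D2 and 0.109 without E2) and Tet1 had a log2 fold change of −0.49 (adjusted p = 0.345).

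Libraries of other groups stood apart. The 4 TKO libraries without cytokines, at days 2 and 6, carried genes of rod photoreceptors, a retinal cell type, at a summed 2080 to 4330 normalised counts over 14 genes, all 14 of them above 3 counts in each. In the other 14 libraries the sum was 12.7 to 63.1 with 1 to 6 genes above 3 counts, and in the 4 libraries of TKO EpiLCs and day 2 TKO cells with cytokines it was 19.3 to 58.3. The 4 libraries of the main comparison thus lay within the range of the libraries that lack it. It touches every comparison with the TKO cells without cytokines, and it enters the estimate of the spread that all groups share. The photoreceptor list was chosen after its values had been seen.

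From TKO EpiLCs to day 2 with cytokines, 511 genes were higher, 3.08% of the genes tested, and 239 were lower, 1.44%, where a call needs an adjusted p under 0.05 with a log2 change beyond 2. Naive pluripotency genes, early PGC genes and targets of BMP and LIF signalling were among the genes that rose, while genes of the EpiLC state and of cholesterol synthesis were among those that fell. At any fold, 1306 genes (7.88%) were higher and 1059 (6.39%) were lower at an adjusted p below 0.05, and the counts of list members that follow are read against these shares. The median log2 fold change of all genes was 0, with 5% of genes below −1.61 and 5% above 2.14. The 2 libraries of a group did not overlap those of the other for 53.9% of the genes tested, 4521 higher and 4421 lower at day 2. This held for all 511 higher and all 239 lower genes, so a lack of overlap in a called gene is no separate result. Of the 511 higher genes, 165 had no more than 3 counts in either EpiLC library, and of the 239 lower genes, 44 had no more than 3 at day 2. With these genes set at the lower bound that 3 counts give, the median log2 fold change was 2.7 for the higher genes (2 of them without a bound) and −2.49 for the lower genes. The count of lower genes was 148 without D1, and the counts without E1, E2 or D2 were 183 to 236. For the higher genes the 4 counts were 375 to 440. In bulk samples such as these, fewer cells of a type and less RNA per cell cannot be told apart.

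**Figure D1:**
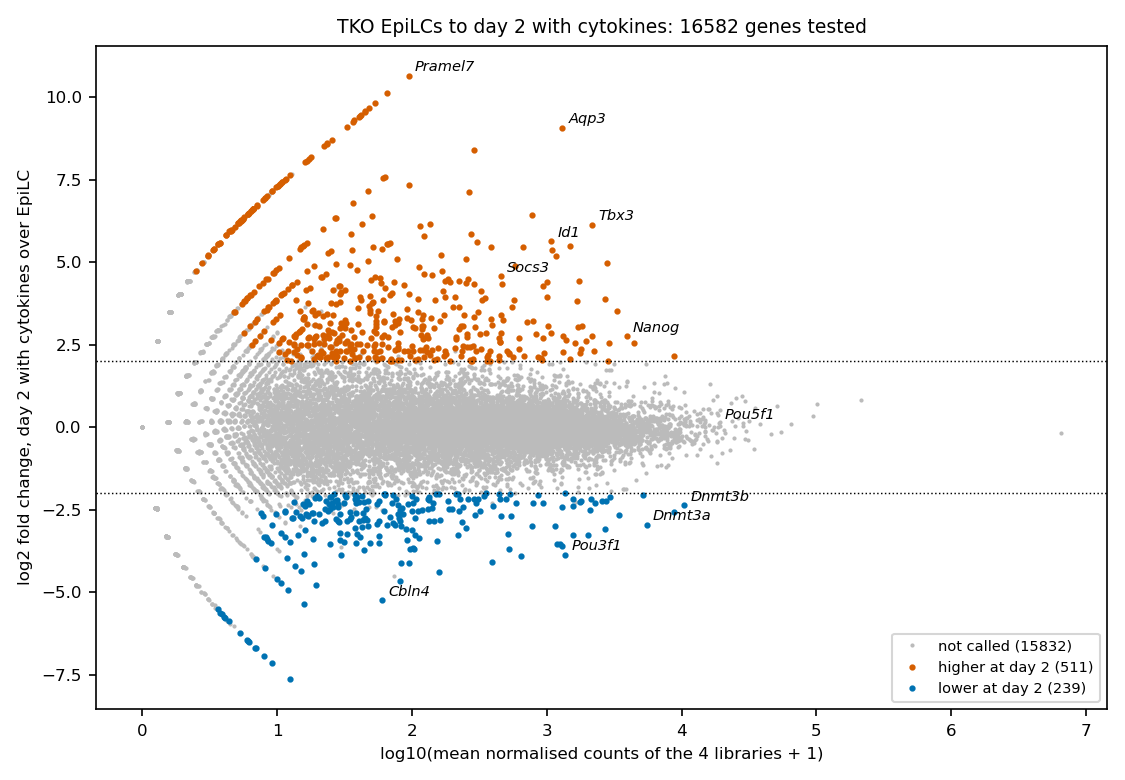
Log2 fold change from TKO EpiLCs to day 2 with cytokines (vertical axis) against the log10 of the mean normalised counts of the 4 libraries plus 1 (horizontal axis) for each gene tested, with the 511 higher genes in orange, the 239 lower genes in blue and dotted lines at log2 fold changes of 2 and −2. Aqp3 and Tbx3 are high in both level and change, and the slanted edges at the left are genes with 0 counts in a group, whose fitted fold changes are not bounds.

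Aqp3 (chr4:41092724-41098183), which encodes a channel for water and glycerol, had the largest change of the genes that were measured above 3 counts in both groups. It went from 4.96 and 4.40 normalised counts in TKO EpiLCs to 2875 and 2341 at day 2 (log2 fold change 9.09, standard error 0.38, adjusted p = 3.26e-09), a 557-fold difference of the means. Calcoco2 (chr11:96098916-96124560), a receptor for selective autophagy, rose from 15.9 and 19.8 to 1601 and 1466 (log2 fold change 6.43, standard error 0.37, adjusted p = 8.54e-08). Tbx3 (chr5:119670534-119684724), a T-box factor of the naive network that acts downstream of LIF, rose from 51.6 and 70.4 to 4953 and 3650 (log2 fold change 6.14, standard error 0.72, adjusted p = 5.05e-05). In these 3 genes the lowest day 2 library was far above the highest EpiLC library. Anxa1, which encodes a phospholipid-binding protein, rose from 4.96 and 2.20 to 269.7 and 259 (log2 fold change 6.15, standard error 0.57, adjusted p = 6.42e-06). 4933402E13Rik went from 1.98 and 5.50 to 441 and 608 (log2 fold change 7.12, standard error 0.49, adjusted p = 5.34e-07). The other 7 of the 12 genes ranked highest by the rule for named genes had no more than 3 counts in either EpiLC library, so only lower bounds can be given. S100a13, which encodes a calcium-binding protein, was at 0 and 3.30 in EpiLCs and 614 and 539.9 at day 2, at least 184-fold higher (adjusted p = 1.44e-06). The bounds were at least 59.7-fold for Pramel7, which was at 0 in both EpiLC libraries and at 158 and 217 at day 2, at least 33.4-fold for Pramel6, at least 41.2-fold for Usp17lb, at least 39.2-fold for Usp17le, at least 38.1-fold for Gm12794 and at least 59.5-fold for Gm21761. Pramel and Usp17l genes are families of near-identical copies, and fragments that map to several places were not counted, so the split of reads between copies is uncertain. All 5 Usp17l genes and 2 of the 4 tested of 6 Pramel genes were among the 511 higher genes. Both families were looked at after the values had been seen, so these counts are no separate result. Genes at 0 in EpiLCs are tested only through groups where they are high.

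Among the genes that fell, Pou3f1 (chr4:124657646-124660655; also called Oct6), a POU factor that marks the EpiLC state, went from 2953 and 2188 normalised counts to 235 and 117 (log2 fold change −3.86, standard error 0.31, adjusted p = 2.51e-06). Cbln4, which encodes a secreted synapse organiser, had 143 and 86.9 in EpiLCs and 5.67 and 0 at day 2 (log2 fold change −5.24, standard error 0.89, adjusted p = 0.00139). Mt3, a metallothionein best known in the brain, had 168 and 143 in EpiLCs and 3.40 and 8.69 at day 2 (log2 fold change −4.67, standard error 0.66, adjusted p = 0.000247). Nsg2, Cdk5r2 and Sncb, which are known from neurons, were among the 12 genes ranked lowest, while in the neural list 4 of 22 members rose and 1 fell. The EpiLC replicates of Cdk5r2, Nsg2 and Aire were far apart. Cdk5r2, an activator of the kinase CDK5, had 279 and 1204 in EpiLCs and 24.9 and 62.1 at day 2 (log2 fold change −4.09, standard error 0.56, adjusted p = 0.000193). Nsg2 had 57.5 and 297 in EpiLCs and 7.93 and 12.4 at day 2 (log2 fold change −4.11, standard error 0.70, adjusted p = 0.00115). Aire, a regulator known from the thymus, had 57.5 and 255 in EpiLCs and 11.3 and 6.21 at day 2 (log2 fold change −4.12, standard error 0.71, adjusted p = 0.00121). In each of these 3 genes replicate 2 of the EpiLCs was the high library. Slc35d3, Slfn9 and Gm9564 were also among the 12. Slfn9 had an adjusted p of 0.00375, but 0.0625 without D1 and 0.0613 without E2, and Sncb had 0.00347, but 0.057 without D1. Among the 246 called genes with a mean of at least 50 normalised counts in EpiLCs, the median ratio between the EpiLC replicates was 1.44, and the ratio was above 3 for 29 genes, with replicate 2 higher in 22.

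Genes of the EpiLC and formative state were mostly lower or without a call, with 10 of 20 tested members lower and 1 higher against 6.39% and 7.88% of all genes, and a median log2 fold change of −1.64. Fgf5 (chr5:98254184-98277033), the FGF ligand that marks the post-implantation epiblast, went from 2697 and 1666 to 308 and 65.8 (log2 fold change −3.53, standard error 0.51, adjusted p = 0.000315). Lef1, a nuclear partner of β-catenin, went from 2086 and 2743 to 263 and 133 (log2 fold change −3.60, standard error 0.45, adjusted p = 7.93e-05). Both genes were below every EpiLC value in each day 2 library, as were 4421 of the 16582 genes tested. For both, replicate 2 of day 2 was the lower of the pair. Car4, Sox3, Sall2, Fgf15 and Utf1 also fell, with log2 fold changes of −3.00, −2.02, −2.19, −3.27 and −1.17. Of these, Fgf15 (0.0717 without D1 and 0.0811 without D2), Sox3 (0.0734 without E1) and Utf1 (0.0816 without D1, 0.14 without D2 and 0.14 without E2) did not stay below 0.05 in every fit without 1 library. Otx2, a homeobox factor that restrains entry to the germline, had 1833 and 3579 in EpiLCs and 585 and 549 at day 2, a log2 fold change of −2.25 (adjusted p = 0.0977) that did not pass. Wnt8a was the member that rose, from 10.9 and 5.50 to 283 and 45.9 (log2 fold change 4.30, standard error 0.86, adjusted p = 0.00361), and its adjusted p was 0.0921 without D1.

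The machinery of DNA methylation shared members with that group. Dnmt3b (chr2:153649411-153687730), a de novo DNA methyltransferase, went from 18020 and 16870 to 3801 and 2932 (log2 fold change −2.37, standard error 0.28, adjusted p = 5.68e-05). Dnmt3a, its paralogue, went from 6223 and 13260 to 1413 and 1098 (log2 fold change −2.95, standard error 0.30, adjusted p = 1.37e-05). Dnmt3l, the catalytically inactive cofactor of both, went from 3145 and 2754 to 807 and 432 (log2 fold change −2.25, standard error 0.38, adjusted p = 0.0012). All 3 genes were lower in both day 2 libraries than in either EpiLC library, as were 4421 of the 16582 genes tested. The maintenance enzyme Dnmt1 had 5770 and 5733 in EpiLCs and 5211 and 5080 at day 2, its log2 fold change being −0.16 (adjusted p = 0.497), and its partner Uhrf1 had −0.36 (adjusted p = 0.314). Over the list, 4 of 14 members were lower, the fourth being Hells, a chromatin remodeller (log2 −0.75, adjusted p = 0.013, but 0.0927 without D1, 0.0642 without D2 and 0.139 without E2). Gadd45b, a stress-response gene, was the member that rose (log2 1.77, adjusted p = 0.0191, but 0.0582 without D1 and 0.0893 without D2), and the median of the list was −0.16.

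**Figure D2:**
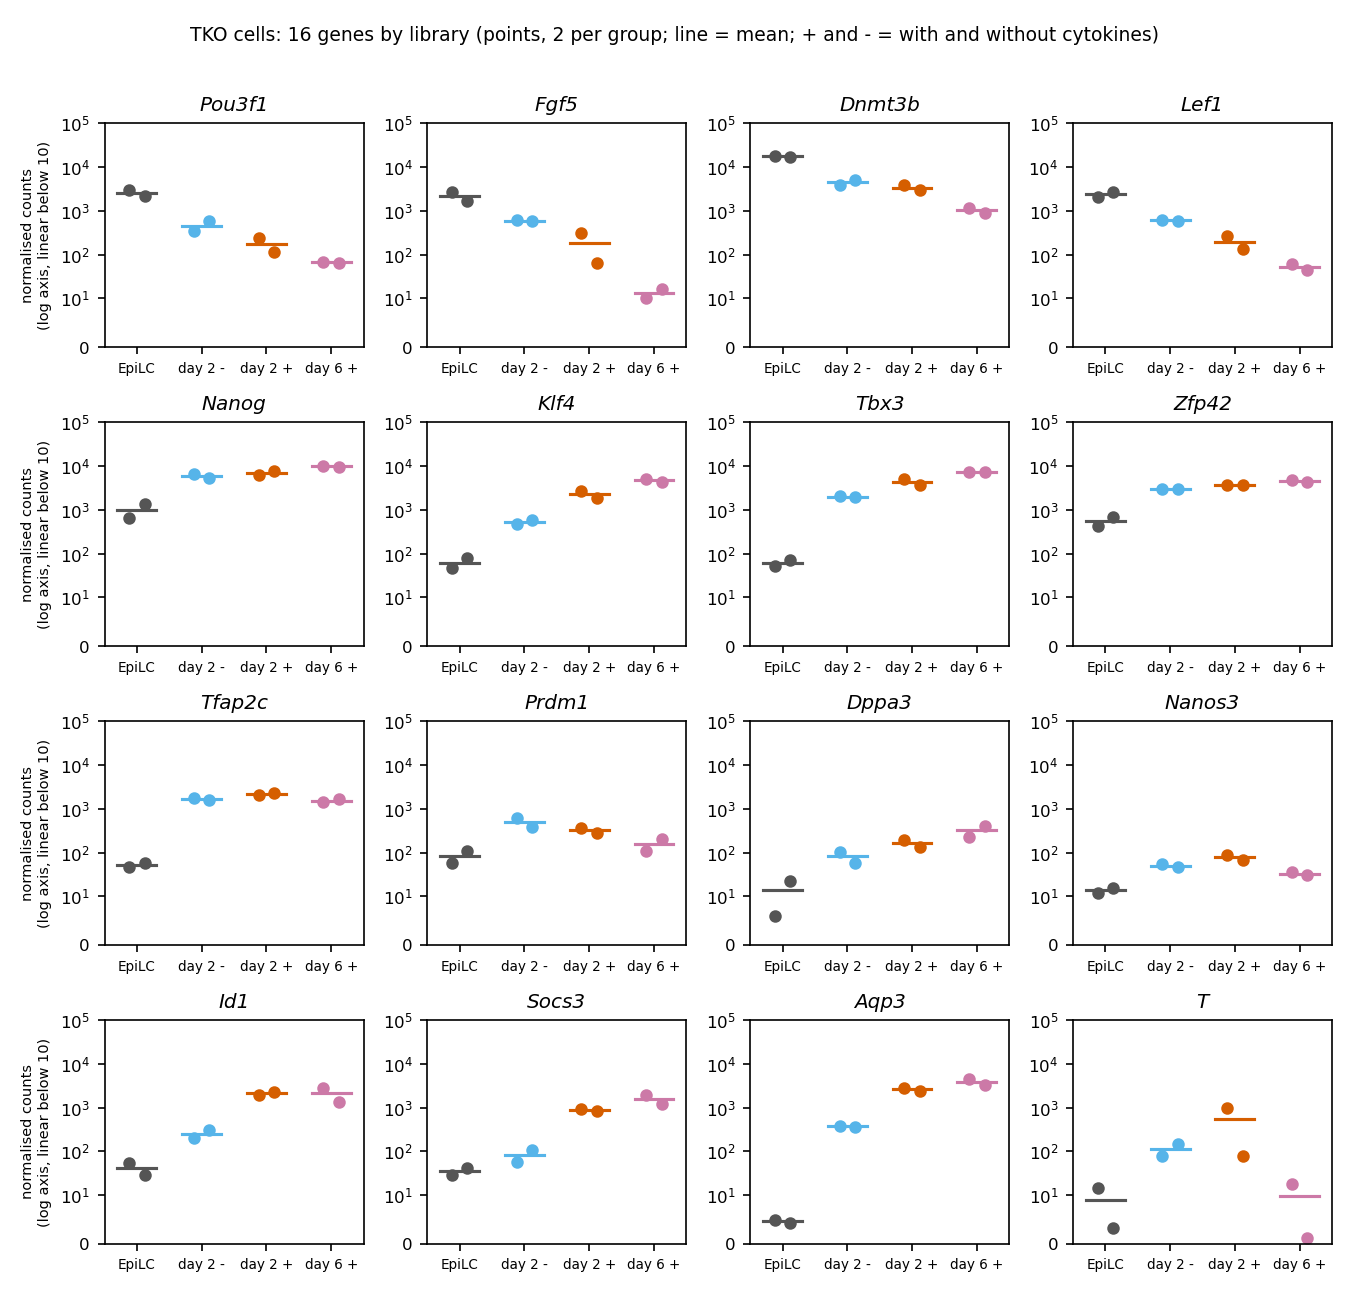
Normalised counts (vertical axes, logarithmic above 10 and linear below) of 16 genes in each TKO library of EpiLCs, day 2 without (−) and with (+) cytokines and day 6 with cytokines, with 1 point per library and a line at the mean of 2. Pou3f1, Fgf5, Dnmt3b and Lef1 step down from EpiLCs to day 2, Nanog to Socs3 step up, and the 2 day 2 libraries with cytokines lie far apart for T.

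Naive pluripotency genes rose, with 13 of 16 members higher and a median log2 fold change of 3.19. Klf4 (chr4:55527137-55532475), a Krüppel-like factor of the LIF–STAT3 axis, went from 45.6 and 79.2 normalised counts to 2748 and 1815 (log2 fold change 5.2, standard error 0.41, adjusted p = 2.31e-06). Nanog, a homeobox factor shared by the naive state and early PGCs, went from 665 and 1343 to 6090 and 7564 (log2 fold change 2.77, standard error 0.28, adjusted p = 1.45e-05). The values of Tfcp2l1, a grainyhead-like factor that acts downstream of STAT3, were 281 and 771 in EpiLCs and 5902 and 6201 at day 2 (log2 fold change 3.53, standard error 0.37, adjusted p = 1.65e-05). In each of these 3 genes, replicate 1 was the lower of the EpiLC pair. Zfp42 (Rex1), a reporter gene of the naive state, rose from 422 and 694 to 3770 and 3763. Tcl1, a cofactor of AKT, went from 17.9 and 28.6 to 449.9 and 510.1. Klf2, Klf5, Esrrb, Nr0b1, Tdh, Prdm14 and Nr5a2 were also higher, with log2 fold changes between 1.93 for Klf5 and 4.44 for Klf2. Esrrb, an orphan nuclear receptor, had 239 and 1464 in the EpiLC libraries, and its adjusted p of 0.0162 became 0.0676 without D2 and 0.0738 without E1. The members that did not pass were Fgf4 (log2 −0.72, adjusted p = 0.14), Dppa5a (log2 0.95, adjusted p = 0.0959) and Gbx2 (log2 −0.20, adjusted p = 0.763).

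The core pluripotency genes had a median log2 fold change of 0.03. Pou5f1 (Oct4) had 17740 and 18110 normalised counts in EpiLCs and 20930 and 18340 at day 2, with a log2 fold change of 0.14, a standard error of 0.42 and an adjusted p of 0.876. Its partner Sox2 went from 1601 and 2733 to 6310 and 5042 (log2 fold change 1.39, standard error 0.30, adjusted p = 0.00594), though with an adjusted p of 0.0552 without D1 and 0.0671 without E1. Lin28b, which blocks the maturation of let-7 miRNAs, fell from 589 and 495 to 214 and 266 (log2 fold change −1.17, standard error 0.21, adjusted p = 0.00168). Dppa2 was the other member that rose (log2 0.93, adjusted p = 0.0268) and Zfp281 the other that fell (log2 −0.63, adjusted p = 0.0232). Neither call was made in all fits without 1 library, with an adjusted p of 0.0767 to 0.138 without any 1 library for Dppa2 and 0.0661 to 0.15 without any 1 library for Zfp281.

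Of the early PGC genes 14 of 21 members were higher, with a median log2 fold change of 2.37. This list shares Nanog and Prdm14 with the naive list, T with the WNT and primitive streak lists and Cxcr4 with the endoderm list. The counts of these lists are thus not separate results. Tfap2c (chr2:172545678-172558622), which encodes AP2γ, went from 45.6 and 57.2 to 2007 and 2230 (log2 fold change 5.37, standard error 0.28, adjusted p = 3.42e-08). Prdm14, a PR-domain factor that restrains FGF signalling and DNA methylation genes, went from 18.9 and 70.4 to 817 and 962 (log2 fold change 4.33, standard error 0.41, adjusted p = 6.76e-06). Prdm1, a repressor of the somatic programme, went from 58.5 and 106 to 362 and 276 (log2 fold change 1.96, standard error 0.35, adjusted p = 0.0017). The 3 specification factors were thus higher in both day 2 libraries than in either EpiLC library, as were 4521 of the 16582 genes tested. Dppa3 (Stella), a maternal factor that protects from methylation changes, went from 5.95 and 22.0 to 197 and 136 (log2 fold change 3.60, standard error 0.48, adjusted p = 0.000182). Nanos3, an RNA-binding protein of migrating PGCs, went from 11.9 and 15.4 to 88.4 and 65.8 (log2 fold change 2.5, standard error 0.44, adjusted p = 0.00141). Among surface proteins, Kit, the SCF receptor, rose from 68.5 and 211 to 800.1 and 1746. Itgb3, which encodes CD61, went from 15.9 and 20.9 to 144 and 206. Alpl, the tissue-nonspecific alkaline phosphatase by which PGCs are stained, rose from 398 and 776 to 3382 and 2670, and Alppl2 went from 0 and 3.30 to 28.3 and 19.9, at least 7.68-fold higher. Ifitm1, Rhox9, Cxcr4, Nanog and T were the other members that rose. Alppl2 and Cxcr4 were not called in every fit without 1 library, with an adjusted p of 0.061 without D1 and 0.0652 without E1 for Alppl2 and 0.0757 to 0.127 without any 1 library for Cxcr4. Dnd1, which protects germ cell mRNAs from miRNAs, had 109 and 304 in EpiLCs and 256 and 100.5 at day 2, and its log2 fold change of −0.20 (adjusted p = 0.798) did not pass, as was the case for Ifitm3, Fut4, Fut9, Elavl2, Rhox5 and Mybl2. Fut4 and Fut9 are fucosyltransferases that make the SSEA1 antigen.

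**Figure D3:**
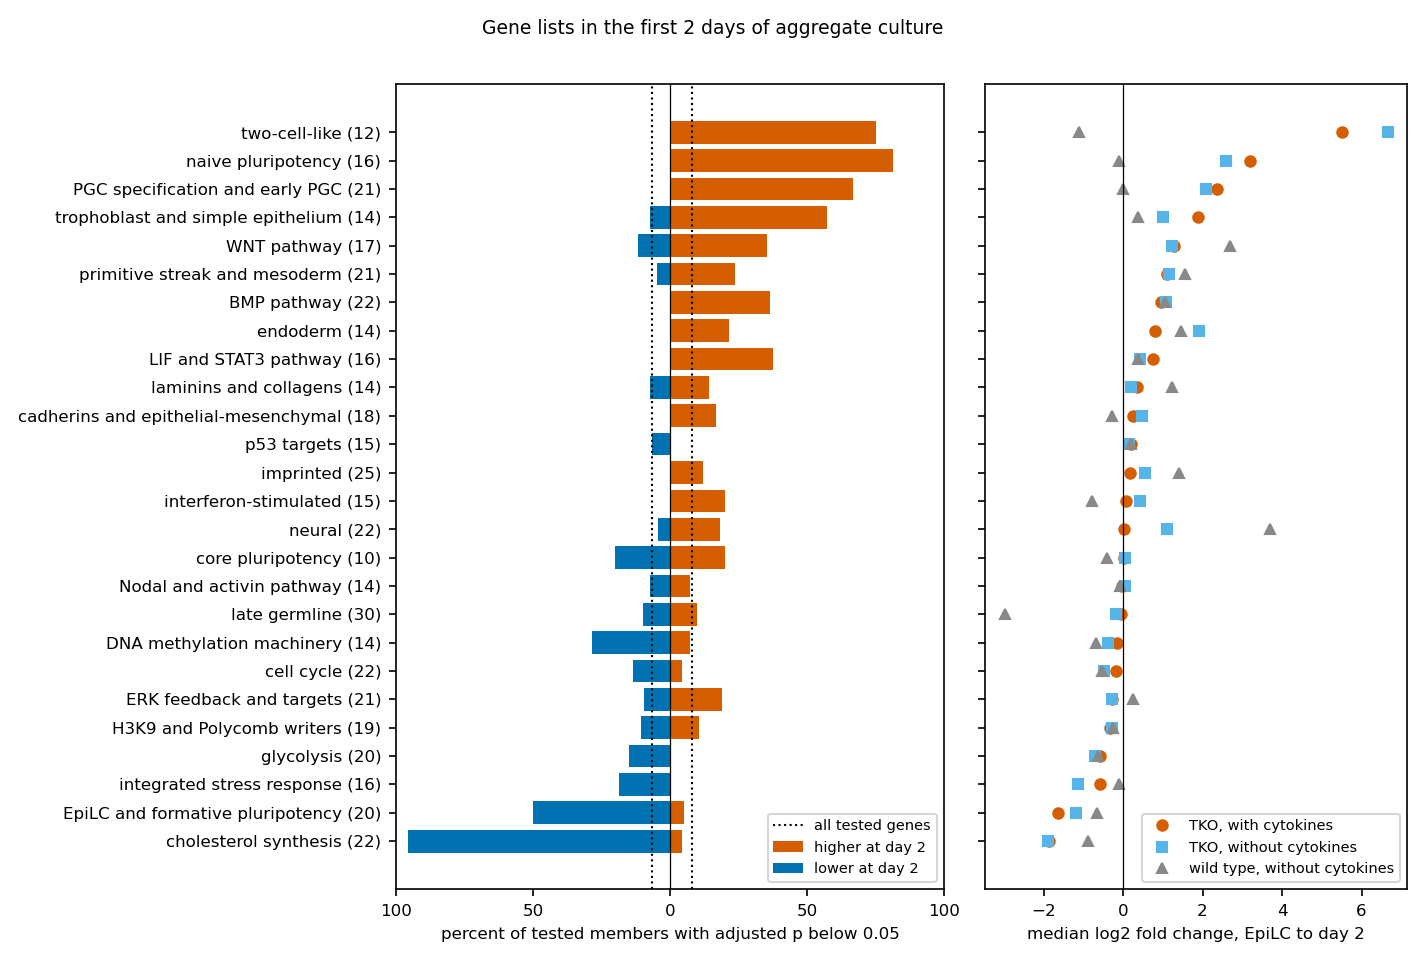
Left, the percent of tested members of 26 lists (numbers in parentheses) that were higher (orange) or lower (blue) at an adjusted p below 0.05 from TKO EpiLCs to day 2 with cytokines, with dotted lines at the 7.88% and 6.39% of all genes tested. Right, the median log2 fold change of each list from EpiLCs to day 2 in TKO cells with cytokines (circles), TKO cells without (squares) and wild-type cells without (triangles), fitted values in which genes near 0 are not set at a bound; the circles and squares share the TKO EpiLC libraries.

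Of the BMP pathway, 8 of 22 members were higher, with a median log2 fold change of 0.94. The inhibitors of differentiation, which are direct SMAD targets, made up 4 of these, Id1, Id2, Id3 and Id4. Id1 (chr2:152736251-152737410) went from 54.6 and 28.6 to 1947 and 2266 (log2 fold change 5.66, standard error 0.75, adjusted p = 0.000166). Id3 went from 21.8 and 55 to 1221 and 1035 (log2 fold change 4.89, standard error 0.75, adjusted p = 0.000535). Id4 went from 0 and 11 to 127 and 94.3. Id2 went from 219 and 40.7 to 321 and 581 with an adjusted p of 0.0493 (0.0647 without D1, 0.263 without D2 and 0.262 without E2). Both Id1 and Id3 were above 1000 normalised counts in each day 2 library and below 60 in each EpiLC library. Msx2, a homeobox target of BMP, had 3.97 and 1.10 in EpiLCs and 85.0 and 145 at day 2, and Gata2, a zinc finger factor, 15.9 and 2.20 in EpiLCs and 289 and 176 at day 2. The ligand Bmp4 rose from 65.5 and 103 to 457 and 290.4 (log2 fold change 2.15, standard error 0.38, adjusted p = 0.00162), and the antagonist Nog from 1.98 and 4.40 to 22.7 and 16.1 (log2 2.59, adjusted p = 0.0304). The adjusted p was 0.0562 without E1 and 0.0906 without E2 for Msx2, 0.0757 without E2 for Gata2 and 0.0605 to 0.174 without any 1 library for Nog. Receptors and SMADs did not pass, with log2 fold changes of −0.25 for Bmpr1a, −0.63 for Acvr1, 0.22 for Smad1, 0.31 for Smad5 and −0.07 for Smad4. The inhibitory SMADs had adjusted p-values just above the limit, with log2 fold changes of 1.12 (adjusted p = 0.0525) for Smad6 and 0.77 (adjusted p = 0.0521) for Smad7.

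Of the LIF and STAT3 pathway, 6 of 16 tested members were higher, with a median log2 fold change of 0.77. Socs3 (chr11:117966079-117970336), the feedback inhibitor of this receptor, went from 29.8 and 42.9 to 910.0 and 828 (log2 fold change 4.59, standard error 0.35, adjusted p = 1.6e-06). Bcl3, a nuclear cofactor of NF-κB, went from 26.8 and 27.5 to 526 and 567 (log2 fold change 4.33, standard error 0.41, adjusted p = 7.3e-06). Junb, an AP-1 subunit, went from 184 and 147 to 1069 and 1084 (log2 fold change 2.71, standard error 0.27, adjusted p = 1.37e-05). The 2 libraries of each group lay close together for these 3 genes. Klf4 and Tfcp2l1, described with the naive genes, and the receptor subunit Il6st (gp130; log2 0.87, adjusted p = 0.00857, but 0.0654 without D2 and 0.0908 without E1) also rose. Lifr, Jak1, Jak2 and Stat3 did not pass, with log2 fold changes from −0.04 for Lifr to 0.80 for Jak2. A Socs3 promoter window of RefSeq is shown because the gene ranked first by the rule for named genes among those higher with than without cytokines. It runs from 250 bases before to 50 bases after a start site. This start site lies inside the gene span given above, so it is not the outermost start of the gene. Capitals mark the STAT motif TTCNNNGAA, searched on both strands, whose fixed letters read the same on each. The motif begins 154 bases before that inner start site. Among genes with a window, 2 of 16 of this list (12.5%) had the motif in any of their windows. The shares were 7.84% for the genes tested and 9.55% for all 27025 genes.
Socs3, chr11:117969317-117969616, minus strand, GRCm38.p6: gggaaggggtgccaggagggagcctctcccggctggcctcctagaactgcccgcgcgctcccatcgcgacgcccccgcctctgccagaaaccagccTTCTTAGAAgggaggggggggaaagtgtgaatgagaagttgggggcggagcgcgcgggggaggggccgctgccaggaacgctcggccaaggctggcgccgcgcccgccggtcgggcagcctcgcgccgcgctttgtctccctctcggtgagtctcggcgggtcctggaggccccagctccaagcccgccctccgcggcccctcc

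Of the genes of ERK feedback and of FGF and EGF receptors, 4 of 21 rose and 2 fell. Those that rose were Erbb3, an EGF receptor family member (1150 and 1445 to 3409 and 3498, log2 1.42, adjusted p = 0.00109), Phlda1 (log2 2.46, adjusted p = 0.00141), Spry2 (log2 1.32, adjusted p = 0.00792) and Kitl (log2 2.54, adjusted p = 0.0141), the gene of SCF itself. The adjusted p was 0.137 without D1 and 0.0896 without E2 for Spry2 and 0.0996 without D2 and 0.111 without E2 for Kitl, and 2 members were higher without E2. Fgf5 and the feedback inhibitor Spry1 (log2 −1.37, adjusted p = 0.00094) fell. For Egfr, the EGF receptor, the values were 302 and 167 in EpiLCs and 154 and 202 at day 2 (log2 −0.39, adjusted p = 0.669). Of the 14 Nodal and activin genes, Foxh1, the DNA-binding partner of SMAD2, fell (log2 −1.0, adjusted p = 0.0221, but 0.178 without D2, 0.0913 without E1 and 0.0552 without E2) and Pcsk6, a convertase, rose (log2 1.16, adjusted p = 0.0195, but 0.0964 without D1, 0.0669 without D2 and 0.134 without E1). Nodal itself had 1098 and 683 in EpiLCs and 1386 and 982 at day 2 (log2 0.42, adjusted p = 0.392).

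Of the WNT pathway, 6 of 17 members rose and 2 fell. Besides T and Wnt8a, the targets Sp5, Cdx1, Dkk1 and Notum rose. Notum, a secreted WNT deacylase, went from 7.94 and 52.8 to 323 and 422 (log2 fold change 3.64, standard error 0.67, adjusted p = 0.00193). Cdx1, a caudal-type factor, went from 4.96 and 0 to 177 and 74.5 (log2 fold change 5.55, standard error 1.04, adjusted p = 0.00261). Sp5 went from 0.992 and 1.10 to 74.8 and 18.6, at least 14.9-fold higher, and the antagonist Dkk1 from 0 and 1.10 to 28.3 and 29.8, at least 9.26-fold higher. Their adjusted p was 0.236 without D1, 0.152 without E1 and 0.153 without E2 for Sp5 and 0.098 without E1 and 0.0556 without E2 for Dkk1. Lef1 and Nkd1 (log2 −1.86, adjusted p = 0.0246, but 0.178 without D1, 0.0802 without D2 and 0.115 without E1) fell, so that 1 member was lower in those fits. Axin2, the feedback target most used as a WNT readout, had 556 and 584 in EpiLCs and 902 and 388 at day 2, its log2 fold change being 0.18 (adjusted p = 0.861).

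T (Brachyury, chr17:8434423-8442496), the T-box gene of the primitive streak that WNT switches on ahead of PGC specification, had the largest ratio between the day 2 replicates of the called genes with a mean of at least 50 normalised counts there. It had 14.9 and 3.30 normalised counts in EpiLCs and 999.5 and 77.0 at day 2 (log2 fold change 5.85, standard error 1.05, adjusted p = 0.00177), a mean of 538 ± 652 (SD, n = 2) at day 2. Replicate 1 of day 2 was 13.0 times replicate 2, and both were above the EpiLC libraries. Replicate 1 was also the higher for Wnt8a, with 283 and 45.9 and a ratio of 6.17, Fgf5, with 308 and 65.8 and a ratio of 4.69, and Alox15, a lipoxygenase, with 168 and 36.0 and a ratio of 4.66. Replicate 2 was the higher for Gm2016, with a ratio of 4.95, Gm2022, with a ratio of 3.79, and Zscan4c, with a ratio of 3.68. These 7 genes and Car4, with 257 and 85.7, were the 8 with a ratio above 3 among the 356 called genes with such a mean, and the median ratio was 1.29. Of the primitive streak and mesoderm list, 5 of 21 members rose and 1 fell, and without any 1 of the 4 libraries 2 or 3 rose. Evx1, a homeobox gene of the posterior streak, went from 0 and 0 to 109.9 and 52.1, at least 25.8-fold higher (adjusted p = 7.19e-05). Hoxb1 went from 3.97 and 1.10 to 39.7 and 14.9 (log2 3.35, adjusted p = 0.014, but 0.169 without D1 and 0.107 without E2). Pdgfra (log2 2.01, adjusted p = 0.0303, but 0.0723 to 0.151 without any 1 library) and Gsc (log2 2.27, adjusted p = 0.0422, but 0.32 without D2, 0.112 without E1 and 0.192 without E2) were the others that rose. Eomes, a T-box factor of early endoderm and streak, fell from 696 and 606 to 215 and 212 (log2 fold change −1.60, standard error 0.32, adjusted p = 0.00375). Mixl1 had 25.8 and 20.9 in EpiLCs and 20.4 and 18.6 at day 2, and Tbx6 26.8 and 11 in EpiLCs and 20.4 and 9.93 at day 2, and neither passed.

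Markers of other cell types that the aggregates could hold moved in part. Of the trophoblast and simple epithelium list, 8 of 14 tested members rose and 1, Eomes, fell, with a median log2 fold change of 1.88. The keratin genes of simple epithelium were among them. Krt8 went from 469 and 633 to 3561 and 3186 (log2 fold change 2.62, standard error 0.57, adjusted p = 0.00601), Krt19 from 168 and 156 to 835 and 595 (log2 fold change 2.15, standard error 0.29, adjusted p = 0.000193) and Krt7 from 103 and 52.8 to 355 and 424 (log2 fold change 2.32, standard error 0.49, adjusted p = 0.00533). Wnt7b (log2 3.65, adjusted p = 6.42e-06), Rhox6 (log2 3.85, adjusted p = 0.000193), Gata2, Gata3 (log2 3.52, adjusted p = 0.0374) and Esx1 (log2 1.39, adjusted p = 0.0337) also rose. The count was 5 without E1 and 4 without E2, with an adjusted p of 0.0579 without E1 for Krt8, 0.0637 without E2 for Krt7, 0.0776 to 0.198 without any 1 library for Gata3 and 0.0938 to 0.152 without any 1 library for Esx1. The defining trophoblast genes Elf5 and Plac1 were too low to be tested, with at most 3.72 normalised counts at day 2 and 2.27 and 1.24 for Plac1, and Cdx2 had 57.5 and 11 in EpiLCs and 169 and 41.0 at day 2 (log2 1.61, adjusted p = 0.227). Of the neural list, 4 of 22 members rose, among them Tubb3, Nes and Hoxa2, and Elavl3 fell. Sox1, a factor of the neural plate, had 83.3 and 19.8 in EpiLCs and 15.9 and 38.5 at day 2 (log2 −0.95, adjusted p = 0.29), and these 3 were not called in all fits without 1 library (Tubb3 0.101 without D2 and 0.116 without E1, Nes 0.0548 without D1 and 0.073 without E2, Hoxa2 0.0705 without D1). Of the 14 tested endoderm genes 3 rose, Hhex, Cxcr4 and Trh, the gene of thyrotropin-releasing hormone, the last from 23.8 and 106 to 4031 and 1755 (log2 fold change 5.50, standard error 0.84, adjusted p = 0.000472), and only Trh was called in all fits without 1 library (Hhex 0.219 without D1 and 0.14 without E2, Cxcr4 0.0757 to 0.127 without any 1 library). The endoderm factor Sox17 had 20.8 and 26.4 in EpiLCs and 7.93 and 7.45 at day 2, and Foxa2 had at most 5.95 in any of the 4 libraries. Of the muscle, blood and liver genes, Acta1, an actin of striated muscle, rose from 8.93 and 19.8 to 383 and 597 (log2 fold change 5.11, standard error 0.65, adjusted p = 9.86e-05), Myh6 fell (log2 −1.70, adjusted p = 0.00682, but 0.0803 without D2), and Alb, Hba-a1 and Hbb-bt were at 0 in all 4 libraries. Of 45 Hox genes 32 had enough counts to be tested, and 9 of these were among the 511 higher genes, which are 3.08% of all genes tested. A gene low in most groups is tested only through a group where it is high, which can raise such a share. The Hox genes were looked at with other families after the values had been seen. What part shifts in the cell types present had in the other results was not tested.

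Two-cell-like genes, which embryos express at the two-cell stage and a rare fraction of stem cells reactivates, rose from near 0. Of 12 tested members 9 were higher, and all 9 calls were made in each fit without 1 library. In 11 of the 12, at least 1 of the 2 groups had no more than 3 counts in either library. Genes near 0 in most groups are tested only through groups where they are high. The 9 of 12 are thus not read against the share of all genes. With genes at 3 counts or fewer set at their bound, the median log2 fold change was 4.16 (1 member without a bound), and 5.51 as fitted. Zscan4d was at 0 in both EpiLC libraries and at 48.7 and 128 at day 2, at least 28.1-fold higher (adjusted p = 3.44e-05). Zscan4a had 0 and 2.20 in EpiLCs and 55.5 and 142 at day 2, at least 31.4-fold higher, and Usp17la, a deubiquitinase, 0 in both EpiLC libraries and 64.6 and 124 at day 2, at least 30.1-fold higher. In most of these genes replicate 2 of day 2 was the higher of the pair. Tmem92 and Gm8300 were also at 0 in both EpiLC libraries and at 61.2 and 95.6 and 56.7 and 119 at day 2. All 5 Zscan4 genes tested were higher, and Zfp352 (0 and 7.45 at day 2), Tcstv3 (2.27 and 9.93) and Tcstv1 (0 in all 4 libraries) were not called. Zscan4 genes are near-identical copies, so that their counts are uncertain. The windows of Zscan4b and Zscan4f are shown for this reason. Of 300 bases 287 are the same, and capitals mark the 13 that differ.
Zscan4b, chr7:10905001-10905300, minus strand, GRCm38.p6: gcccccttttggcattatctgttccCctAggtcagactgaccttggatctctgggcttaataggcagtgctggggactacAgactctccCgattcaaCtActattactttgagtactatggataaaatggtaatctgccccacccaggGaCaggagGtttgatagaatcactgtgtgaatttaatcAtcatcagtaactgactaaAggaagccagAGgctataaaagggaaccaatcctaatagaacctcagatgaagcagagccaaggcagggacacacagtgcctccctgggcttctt
Zscan4f, chr7:11397665-11397964, plus strand, GRCm38.p6: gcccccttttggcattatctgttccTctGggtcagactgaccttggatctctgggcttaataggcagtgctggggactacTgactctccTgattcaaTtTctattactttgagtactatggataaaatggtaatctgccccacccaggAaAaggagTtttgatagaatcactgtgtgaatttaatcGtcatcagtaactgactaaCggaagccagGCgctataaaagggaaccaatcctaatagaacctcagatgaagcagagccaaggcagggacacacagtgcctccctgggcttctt

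These windows hold 1 and 3 CpG dinucleotides, the site of DNA methylation. All 8 members of the two-cell-like list with a RefSeq window had 4 or fewer, with a median of 2.5. Among the 12819 tested genes with a window the median was 21 and 8.30% had 4 or fewer. Members such as Zscan4b and Zscan4f are near-identical copies, so the 8 are not separate cases and their share is no result of its own. Among the 357 of the 511 higher genes with a window the median was 13 and 21.3% had 4 or fewer, and among 169 of the 239 lower genes these were 14 and 11.2%. The window of Pramel7, at least 59.7-fold higher at day 2, is shown as that of the gene with the highest rank, and its single CpG is in capitals.
Pramel7, chr2:87492369-87492668, minus strand, GRCm38.p6: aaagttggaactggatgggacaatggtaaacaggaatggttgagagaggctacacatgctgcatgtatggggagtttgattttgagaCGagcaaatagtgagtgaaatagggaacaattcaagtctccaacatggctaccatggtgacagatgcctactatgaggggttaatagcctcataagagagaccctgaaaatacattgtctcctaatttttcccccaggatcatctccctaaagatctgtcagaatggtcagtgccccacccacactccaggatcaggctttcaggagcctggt

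**Figure D4:**
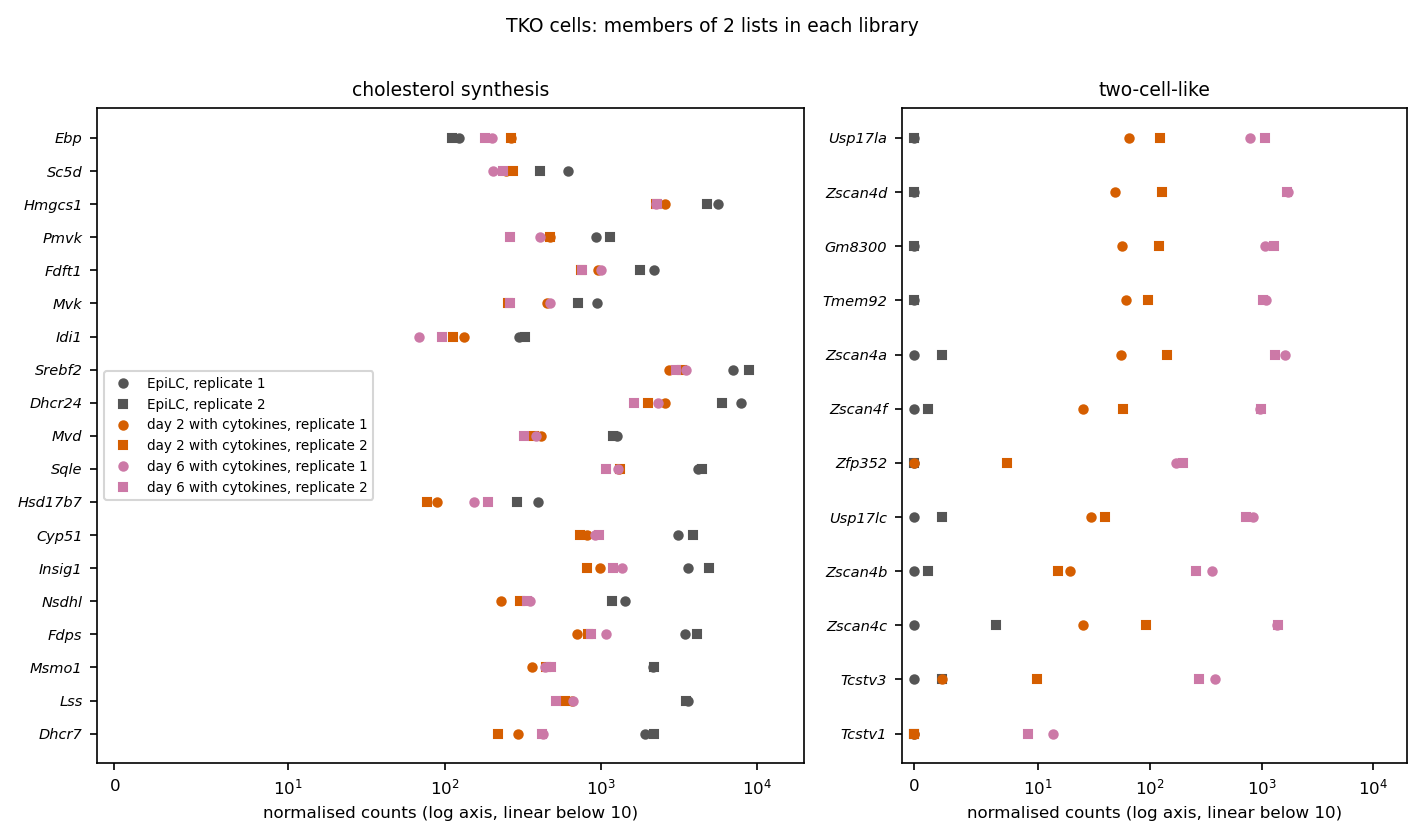
Normalised counts (horizontal axes, logarithmic above 10 and linear below) of 19 of the 22 tested members of the cholesterol synthesis list (left) and the tested members of the two-cell-like list (right) in each TKO library of EpiLCs (black), day 2 with cytokines (orange) and day 6 with cytokines (purple), circles for replicate 1 and squares for replicate 2. All cholesterol genes shown but Ebp lie lower at day 2 than in EpiLCs, and most two-cell-like genes step from near 0 to day 2 and again to day 6.

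Late germline genes, which act in meiosis, the piRNA pathway and spermatogenesis, passed the test in few cases. Of 30 tested members 3 rose and 3 fell, against 7.88% and 6.39% of all genes, and the median log2 fold change was −0.04 (−0.08 with bounds, 1 member without one). Stra8, the retinoic acid-induced gate to meiosis, rose from 5.95 and 9.90 to 83.9 and 182 (log2 fold change 4.07, standard error 0.55, adjusted p = 0.000247). Rec8, a meiotic cohesin, rose from 108 and 133 to 460.1 and 395 (log2 fold change 1.83, standard error 0.29, adjusted p = 0.000586). Spesp1, of the sperm head, went from 0.992 and 2.20 to 31.7 and 47.2, at least 12.6-fold higher. These 3 calls were made in each fit without 1 library, whereas Smc1b (log2 −2.38, adjusted p = 0.0118), Mei1 (log2 −2.07, adjusted p = 0.0177) and Hells, which fell, were not. Their adjusted p was 0.132 without D1 and 0.382 without E2 for Smc1b, 0.114 without D1, 0.0938 without D2 and 0.124 without E1 for Mei1 and 0.0927 without D1, 0.0642 without D2 and 0.139 without E2 for Hells. Several members were already well above the floor in TKO EpiLCs. Mael, of the piRNA pathway, had 642 and 1085 in EpiLCs and 477 and 569.7 at day 2 (log2 −0.72, adjusted p = 0.0942), Sycp3, of the synaptonemal complex, 570.4 and 1162 in EpiLCs and 723 and 653 at day 2 (log2 −0.33, adjusted p = 0.52). Taf7l, a germ cell form of a TFIID subunit, had 211 and 124 in EpiLCs and 173 and 263 at day 2 (log2 0.38, adjusted p = 0.495). Ddx4 (Vasa), the RNA helicase of germ cells, had 407 and 300.2 in EpiLCs and 460.1 and 520.1 at day 2 (log2 0.48, adjusted p = 0.343). Dazl had 100.2 and 156 in EpiLCs and 55.5 and 186 at day 2 (log2 −0.08, adjusted p = 0.941).

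The windows of Mael, Taf7l and Sycp3 are shown because they hold the E-box CACGTG (a palindrome, so the same on both strands), in capitals, the letters that the E2F6, MGA and MAX repressor complex of germline genes is known to use through MGA and MAX. Among genes with a window, 12 of 27 of the late germline list (44.4%) had it in any of their windows. The shares were 11.2% for the genes tested and 8.09% for all 27025 genes. A match is a description of these letters only.
Mael, chr1:166238695-166238994, minus strand, GRCm38.p6: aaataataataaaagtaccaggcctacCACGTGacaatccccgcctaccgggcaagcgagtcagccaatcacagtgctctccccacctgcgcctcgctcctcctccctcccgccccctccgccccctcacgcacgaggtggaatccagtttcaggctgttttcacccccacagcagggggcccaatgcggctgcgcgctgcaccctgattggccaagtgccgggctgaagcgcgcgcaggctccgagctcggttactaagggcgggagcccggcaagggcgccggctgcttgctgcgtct
Taf7l, chrX:134476441-134476740, minus strand, GRCm38.p6: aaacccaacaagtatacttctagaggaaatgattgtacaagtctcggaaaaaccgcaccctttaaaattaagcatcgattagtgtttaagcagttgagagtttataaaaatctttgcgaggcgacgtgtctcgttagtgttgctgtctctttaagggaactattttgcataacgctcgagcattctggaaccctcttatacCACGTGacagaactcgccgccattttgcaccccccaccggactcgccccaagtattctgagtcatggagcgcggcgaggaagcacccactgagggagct
Sycp3, chr10:88459337-88459636, plus strand, GRCm38.p6: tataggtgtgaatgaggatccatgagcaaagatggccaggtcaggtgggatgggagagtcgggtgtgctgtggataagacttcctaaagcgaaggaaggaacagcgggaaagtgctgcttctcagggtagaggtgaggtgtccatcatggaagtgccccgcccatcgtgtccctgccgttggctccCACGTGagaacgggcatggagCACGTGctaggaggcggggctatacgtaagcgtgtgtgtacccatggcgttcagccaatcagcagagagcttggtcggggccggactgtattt

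Genes of cholesterol synthesis fell. Of 22 tested members 21 were lower and 1 was higher, with a median log2 fold change of −1.87, and 18 of the 21 were lower in every fit without 1 library (the adjusted p was 0.0847 without D1 and 0.1 without E1 for Sc5d, 0.149 without D2 and 0.0933 without E1 for Mvk and 0.116 without D1, 0.0956 without D2 and 0.116 without E2 for Pmvk). Dhcr7, which makes cholesterol from its last precursor, went from 1905 and 2189 to 294 and 219.7 (log2 fold change −2.99, standard error 0.24, adjusted p = 2.51e-06). The sterol sensor partner Insig1 went from 3602 and 4927 to 990.5 and 819 (log2 fold change −2.23, standard error 0.19, adjusted p = 3.49e-06). Srebf2, the transcription factor of the pathway, went from 7004 and 8880 to 2731 and 3278 (log2 fold change −1.40, standard error 0.21, adjusted p = 0.000378). All 3 genes were lower in both day 2 libraries than in either EpiLC library, as were 4421 of the 16582 genes tested. Ebp, a sterol isomerase, was the member that rose (123 and 111 to 265 and 267, log2 fold change 1.19, standard error 0.21, adjusted p = 0.00143). The TKO aggregates without cytokines had a list median of −1.88 and the wild-type aggregates without cytokines −0.89 over the same 2 days.

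The other metabolic, cell cycle and chromatin lists moved less. Of 20 glycolysis genes 3 fell, Pfkm (log2 −1.13, adjusted p = 0.00294), Pgam1 (log2 −0.85, adjusted p = 0.00381) and the lactate exporter Slc16a3 (3734 and 5306 to 760.4 and 1149, log2 −2.24, adjusted p = 0.0135), with a list median of −0.58. Without E1 9 members were lower and without D1 1, as Pgam1 (0.0636 without D1) and Slc16a3 (0.132 without D1, 0.051 without D2 and 0.0757 without E2) lost their call. Of 16 genes of the integrated stress response, Mthfd2, Slc7a11 and Slc7a5 fell, and the count was 1 without E1, 1 without D1 and 7 without D2 (Mthfd2 0.23 without D1 and 0.126 without E1, Slc7a11 0.307 without D1, 0.107 without E1 and 0.0867 without E2). In the cell cycle list Ccnd1, the cyclin D1 gene, fell from 1215 and 1465 to 377 and 487 (log2 fold change −1.63, standard error 0.29, adjusted p = 0.00148) together with Mycl (log2 −1.19, adjusted p = 0.00288) and Top2a (log2 −0.67, adjusted p = 0.036, but 0.27 without D1 and 0.329 without E2), and Ccnd3 rose (log2 0.93, adjusted p = 0.0275, but 0.0966 without D1, 0.109 without D2 and 0.182 without E1). Mki67 had a log2 fold change of −0.11 (adjusted p = 0.778). Of 15 tested p53 targets, Pmaip1 fell (log2 −1.14, adjusted p = 0.0393, but 0.0693 to 0.24 without any 1 library), while 6 were higher without E1, and Cdkn1a had 1421 and 518 in EpiLCs and 1222 and 1146 at day 2 (log2 0.29, adjusted p = 0.626). Of 19 H3K9 and Polycomb writers, Eed (log2 0.61, adjusted p = 0.011) and Ring1 (log2 0.90, adjusted p = 0.0151) rose and Pcgf6 (log2 −0.58, adjusted p = 0.0388) and L3mbtl2 (log2 −0.85, adjusted p = 0.00944) fell, and each of the 4 lost its call in some fits (Eed 0.117 without D1 and 0.0667 without E2, Ring1 0.115 without D1 and 0.139 without E2, Pcgf6 0.0757 to 0.153 without any 1 library, L3mbtl2 0.0673 without D1 and 0.0591 without D2).

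Of 18 cadherin and epithelial-mesenchymal genes, Esrp2, a splicing factor of epithelia, rose from 195 and 139.6 to 534 and 611 (log2 fold change 1.78, standard error 0.32, adjusted p = 0.00181), as did Cldn4 (log2 0.82, adjusted p = 0.0299, but 0.0844 without D1, 0.138 without D2 and 0.223 without E1) and Zeb2 (log2 2.16, adjusted p = 0.00561, but 0.068 without D1 and 0.0614 without E2). Cdh1 (E-cadherin) had 10110 and 9451 in EpiLCs and 6828 and 7347 at day 2 (log2 −0.46, adjusted p = 0.148). Of 14 laminin and collagen genes, Nid1 (log2 2.00, adjusted p = 0.00206) and Lama1 (log2 2.06, adjusted p = 0.00471, but 0.0699 without D2 and 0.0556 without E2) rose and Lama5 fell (log2 −0.84, adjusted p = 0.0334, but 0.086 to 0.161 without any 1 library). Of 25 imprinted genes, Igf2, a growth factor gene, rose from 92.3 and 55 to 911 and 1230 (log2 3.86, adjusted p = 0.00531, but 0.0637 without E2), as did Ndn (log2 1.49, adjusted p = 0.00261) and Peg3 (log2 1.04, adjusted p = 0.0145, but 0.143 without D1 and 0.146 without E2). Of 15 tested interferon-stimulated genes 3 rose, among them Irf9 (log2 1.48, adjusted p = 0.00181) and Samd9l (log2 1.70, adjusted p = 0.00739, but 0.0837 without D2 and 0.0562 without E1).

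To see which of these levels differed with the cytokines, day 2 TKO cells with cytokines were set against those without. The 2 comparisons, EpiLCs to day 2 with cytokines and with against without cytokines, share the 2 day 2 libraries with cytokines, so their values are only given side by side. By the same limits, 26 genes (0.157% of the genes tested) were higher with cytokines and 236 (1.42%) were lower. At any fold, 340 (2.05%) were higher and 409 (2.47%) lower. The 26 higher genes included known targets of LIF and BMP. They also included the histone genes Hist1h4m, H4c14 and H4c9 and the small RNA gene Scarna2, with log2 fold changes between 2.235 and 2.636. The 3 histone genes did not pass from EpiLCs to day 2 with cytokines (adjusted p = 0.368, 0.186 and 0.215). Hist1h4m had 1176 and 1080 in EpiLCs, 267 and 317 without and 2518 and 1070 with cytokines. Rn45s held 16.2% and 20.9% of the counts without and 31.7% and 33.4% with cytokines. Its part in these differences was not tested. Socs3 had 58.1 and 106 without and 910.0 and 828 with cytokines (log2 fold change 3.43, standard error 0.32, adjusted p = 7.12e-05). Id1 had 199 and 314 without and 1947 and 2266 with (log2 fold change 3.06, standard error 0.64, adjusted p = 0.0164, but 0.0738 to 0.166 without any 1 library). Igf2 had 107 and 113 without and 911 and 1230 with (log2 fold change 3.30, standard error 0.79, adjusted p = 0.031, but 0.102 to 0.206 without any 1 library), Aqp3 387 and 358 without and 2875 and 2341 with (log2 fold change 2.82, standard error 0.25, adjusted p = 3.3e-05). S100a6, a calcium-binding protein gene, had 35.3 and 72.1 without and 316 and 389.7 with (log2 fold change 2.74, standard error 0.37, adjusted p = 0.00129). The rule for named genes asks that the groups do not overlap, which 60.9% of the genes tested met in this comparison. Of the LIF and STAT3 list, 5 of 16 members were higher with cytokines, namely Socs3, Junb (log2 2.09, adjusted p = 0.000892), Bcl3 (log2 2.11, adjusted p = 0.00547, but 0.0733 without N1 and 0.0623 without N2), Klf4 (log2 2.16, adjusted p = 0.00377, but 0.055 without D1 and 0.0562 without N1) and Pim3 (log2 1.28, adjusted p = 0.0035, but 0.0632 without N2), with a list median of 0.50 against −0.03 for all genes. The count was 3 without N1 and 3 without N2. Of the BMP list, Id1 was higher and Nog lower (log2 −2.49, adjusted p = 0.0229, but 0.131 without D1, 0.13 without D2 and 0.212 without N2), and Id3 did not pass (log2 2.10, adjusted p = 0.069).

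Most naive and PGC genes did not pass in this comparison. The list medians with against without cytokines were 0.39 for naive pluripotency, where Klf4 was the 1 member called, and 0.21 for early PGC genes. Tfap2c had 1789 and 1544 without and 2007 and 2230 with cytokines, a log2 fold change of 0.36 with a standard error of 0.22 and an adjusted p of 0.343, and Prdm1 611 and 381 without and 362 and 276 with (log2 −0.63, adjusted p = 0.259). Nanog had 6585 and 5398 without and 6090 and 7564 with (log2 0.20, adjusted p = 0.68). The EpiLC genes Pou3f1 (log2 −1.36, adjusted p = 0.0194, but 0.131 without D2 and 0.219 without N2), Lef1 (log2 −1.59, adjusted p = 0.0451, but 0.1 to 0.215 without any 1 library) and Sall2 (log2 −1.12, adjusted p = 0.0354, but 0.111 to 0.25 without any 1 library) were lower with cytokines than without. Of the 236 genes lower with cytokines, the leading ones by the rule for named genes included the photoreceptor genes Gnat1, Rbp3 and Rp1 and the lens crystallin gene Crybb2, whose adjusted p of 0.00481 became 0.051 without D1. Gnat1, the rod transducin subunit, had 539 and 1059 without and 2.27 and 6.21 with cytokines. All 14 photoreceptor genes, listed after their values had been seen, were among the 236. Of the 236, 103 were higher in all 4 TKO libraries without cytokines than in any of the other 14 libraries. The 236 were called as high in 2 of those 4 libraries, so this count follows in part from the call. The same share over all genes tested was not computed. The part of the photoreceptor signal in the rest of the 236 was not tested. Each count of this comparison moved by over 1.5 times without single libraries. The higher genes were 9 without N1, 13 without N2, 13 without D1 and 17 without D2, and the lower genes 128, 51, 41 and 73 in the same order.

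The change of TKO cells with cytokines was next set against that of wild-type cells without, whose libraries are all different, as the difference between the 2 changes in 1 model. The change was higher in TKO cells for 666 genes (4.02%) and lower for 685 (4.13%) at a log2 difference beyond 2, and for 1221 (7.36%) and 1456 (8.78%) at any size. Naive, early PGC, late germline and two-cell-like genes were on the higher side and neural genes on the lower. By the same limits, 1127 genes were higher in wild-type cells, 6.8% of the genes tested, and 774 were lower, 4.67%. The overlaps that follow are read against these shares. Of the 511 genes higher in TKO cells 156 (30.5%) were among the 1127 (13.8% of those) and 20 (3.91%; 2.58%) among the 774. Of the 239 lower genes 53 (22.2%) were among the 774 (6.85%) and 10 (4.18%) among the 1127 (0.887%). The naive list had 13 of 16 members with a higher change in TKO cells and 1, Gbx2, with a lower (adjusted p = 0.0112, but 0.0574 without replicate 2 of the wild-type EpiLCs), and list medians of 3.19 in TKO and −0.09 in wild-type cells. Zfp42 went from 408 and 251 to 89.7 and 48.2 in wild-type cells (log2 4.96, adjusted p = 7.34e-06, the difference between the changes). Dppa5a went from 15900 and 11620 to 355 and 442 (log2 6.00, adjusted p = 8.19e-06). Klf4 went from 59.4 and 22.2 to 40.9 and 54.4 (log2 4.74, adjusted p = 9.84e-05), while Nanog rose in both (422 and 359 to 1577 and 1782 in wild-type cells, log2 0.61, adjusted p = 0.303). Early PGC genes had 10 of 21 members with a higher change, among them Dppa3, which went from 45.0 and 36.7 to 1.95 and 4.66 in wild-type cells (log2 7.05, adjusted p = 3.69e-05), Tfap2c (log2 4.15, adjusted p = 2e-05) and Prdm1 (log2 2.68, adjusted p = 0.00277). Two-cell-like genes had 9 of 12, a count that is likewise not read against the share of all genes.

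The late germline list had the same direction. Of 30 members 19 had a higher change in TKO cells and 1, Tdrkh, a lower (adjusted p = 0.0178, but 0.0667 to 0.0899 without D1, E1, replicate 1 of the wild-type EpiLCs or replicate 1 of wild-type day 2), and the list median was −0.04 in TKO and −2.98 in wild-type cells. Taf7l had 45.0 and 56.7 in wild-type EpiLCs and was at 0 in both day 2 libraries without cytokines, against 211 and 124 in EpiLCs and 173 and 263 at day 2 in TKO cells (adjusted p of the difference = 4.62e-05). Mael went from 297 and 357 to 18.5 and 9.32 in wild-type cells (log2 3.82, adjusted p = 7.4e-05). Tex19.1 went from 824 and 490.3 to 40.0 and 22.5 against 1347 and 1544 to 1795 and 2132 in TKO cells (log2 4.80, adjusted p = 7.34e-06). Piwil2, of the piRNA pathway, went from 156 and 143 to 17.6 and 14.8 (log2 3.17, adjusted p = 0.000135). The same held outside the list for Dppa2, which went from 387 and 308 to 20.5 and 5.44 (log2 5.67, adjusted p = 3.01e-06), and Dppa4, from 1226 and 1172 to 80.9 and 24.9 (log2 4.53, adjusted p = 2e-05). In these 6 genes both wild-type day 2 libraries were below both wild-type EpiLC libraries, as they were for 37.6% of the genes tested.

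**Figure D5:**
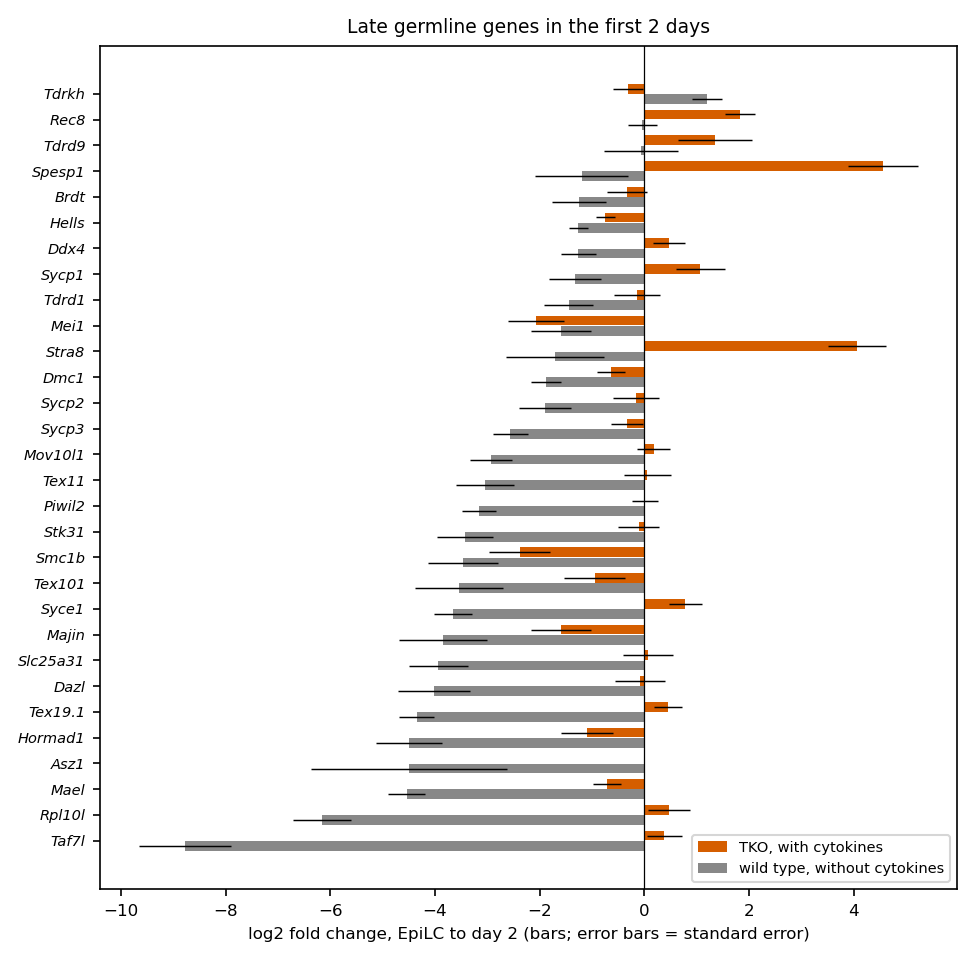
Log2 fold change from EpiLCs to day 2 (horizontal axis, bars with standard error) for the 30 tested late germline genes in TKO cells with cytokines (orange) and wild-type cells without (grey), ordered by the wild-type change. The grey bars run mostly to the left and the orange bars stay near 0 apart from Spesp1, Stra8 and a few others, and bars of genes at 0 counts in a group, such as Taf7l in wild-type day 2 cells, are fitted values and no bounds.

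On the other side, Sox1 went from 22.5 and 18.3 to 3293 and 1498 in wild-type cells and from 83.3 and 19.8 to 15.9 and 38.5 in TKO cells (log2 −7.89, adjusted p = 1.38e-05). Of the neural list 9 of 22 members had a lower change in TKO cells, with fitted medians of 0.03 in TKO and 3.70 in wild-type cells (0.91 in TKO cells with bounds, 5 members without one). The count was 4 without D1, 5 without E2 and 6 to 11 without any other library. Cyp26c1, which degrades retinoic acid, was at 0 in both wild-type EpiLC libraries and at 1171 and 349 at day 2, against 12.5 and 9.93 in day 2 TKO cells, and Foxb1, a forkhead gene of the neural tube, had 189 and 325 at day 2 in wild-type cells and 0 in both TKO libraries. Cdh6 (353 and 130.5 against 12.5 and 0) and Casr (462 and 128 against 4.53 and 6.21) complete the 5 lowest by the rule for named genes. Without E1 the adjusted p went from 0.00575 to 0.166 for Cyp26c1, from 0.0126 to 1 for Foxb1 and from 0.00797 to 0.191 for Cdh6, so that 3 of the 5 calls rest on that library. The wild-type libraries were thus the high ones for all 5 genes. Cholesterol genes had a lower change in TKO cells for 11 of 22 members, and the count was 6 without replicate 1 of the wild-type EpiLCs, 7 without replicate 2 of them, E1, D2 or replicate 2 of wild-type day 2, and 8 to 14 without any other library. The BMP list had 3 higher and 3 lower, and Id1 did not pass (17.7 and 18.9 to 255 and 221 in wild-type cells, log2 1.93, adjusted p = 0.242). Here the genotype and the cytokines cannot be told apart, and with library size alone in place of TMM factors the higher and lower genes were 484 and 1282.

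The levels reached at day 2 were last compared with day 6 with cytokines in TKO cells, in libraries that share the day 2 samples. From day 2 to day 6, 371 genes (2.24%) were higher and 63 (0.38%) lower at a log2 fold change beyond 2, and 710 (4.28%) and 285 (1.72%) at any fold. Two-cell-like genes rose further, with 11 of 12 members higher, though genes near 0 in most groups are tested only through groups where they are high. Zscan4d went from 48.7 and 128 at day 2 to 1730 and 1690 at day 6 (log2 fold change 4.28, standard error 0.38, adjusted p = 5.15e-05). T went back from 999.5 and 77.0 to 18.5 and 1.15 (log2 fold change −5.92, standard error 1.09, adjusted p = 0.00473, but 0.135 without D1 and 0.0718 without L2), and Fgf5 went from 308 and 65.8 to 10.1 and 16.1 (log2 fold change −3.78, standard error 0.67, adjusted p = 0.0035, but 0.0671 without D1). In the EpiLC list 6 of 20 members were lower at day 6 than at day 2, Wnt8a among them, and the count was 2 without D1, 3 without L1 and 3 without L2. In the naive list Tcl1 was the 1 member called (log2 1.55, adjusted p = 0.00517, but 0.0973 without D1). Tfap2c (2007 and 2230 to 1424 and 1643, log2 −0.46, adjusted p = 0.251) and Nanog (6090 and 7564 to 10170 and 9283, log2 0.51, adjusted p = 0.278) did not pass. Dazl, a translational regulator of germ cells, rose from 55.5 and 186 to 905 and 2290 (log2 fold change 3.73, standard error 0.50, adjusted p = 0.000525). Stra8 went from 83.9 and 182 to 796 and 859.9 (log2 fold change 2.64, standard error 0.42, adjusted p = 0.00236, but 0.0526 without D1). Keratin 19 fell from 835 and 595 to 178 and 216 (log2 fold change −1.85, standard error 0.29, adjusted p = 0.00165). The higher and lower genes were 110 and 22 without D1, 223 and 60 without D2, 259 and 38 without L1, and 197 and 40 without L2. The higher genes were 242 when the 4 TKO libraries without cytokines were left out of the model.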

How the data were processed

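Ribosomal RNA-depleted total RNA of 18 libraries, 2 in each of 9 groups, had been sequenced in read pairs. To make the raw counts that were deposited, the authors trimmed reads with Trim Galore 0.5.0 and cutadapt 1.16, aligned them to mm10 with STAR 2.7.1a and counted fragments on refGene exons with featureCounts of Subread 1.5.2, without strand and without fragments of several positions or genes, so that near-identical copies and overlapping genes are uncertain. Of the rows, 33 without values were left out. Counts of 25239 genes were tested in R 4.3.3 with edgeR 4.0.16 (quasi-likelihood F test, TMM factors, filterByExpr) in 1 model of 9 group means over all libraries, with 9 residual degrees of freedom and a biological coefficient of variation of 0.222. Normalised counts used the size factors of DESeq2 1.42.0, which was also run as an alternative test. The script was tested on simulated counts. Genes were called at an adjusted p below 0.05 and a log2 change beyond 2, as in the study, and members of lists at that p and any fold. A gene at 3 counts or fewer in both libraries of a group was given a bound computed against 3 counts per library. Named genes were the members of the gene lists, plus the 12 highest and 12 lowest fold changes of the main comparison and 5 each way of the comparisons with the cells without cytokines and with wild-type cells, among called genes with a mean of at least 50 normalised counts and no overlap between groups. Alox15, Gm2016, Gm2022 and Zscan4c were picked for their replicate ratio after their values were seen. Gene positions and promoter windows (250 bases before to 50 after the start) were taken from RefSeq, GRCm38.p6. There were 32851 windows for 27025 genes, and where a gene had several, that with the lowest coordinates is shown. A gene was counted for a motif if any of its windows held it, so several windows give more occasions for a match. The CpG count of a gene was the highest of its windows. Some genes that the rule names are not reported here. The gene set, lists and comparisons were chosen with earlier results of these data known. Figures were drawn with Python 3.11.15, pandas 2.3.3 and matplotlib 3.10.9.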

Additional observations from a re-analysis of the deposited data

Results flagged for a closer look

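The change over the first 2 days was tested as a difference between TKO cells with cytokines and wild-type cells without, and 666 genes had a higher and 685 a lower change in TKO cells. The genotype and the cytokines cannot be told apart in it. The fitted log2 differences of the genes named by the rule were 9.16 for Taf7l, 8.75 for Gm21761, 8.69 for Calcoco2, 8.69 for Aqp3 and 8.61 for 4933402E13Rik on the higher side. On the lower side they were −11.5 for Foxb1, −10.6 for Cyp26c1, −8.56 for Cdh6, −7.89 for Sox1 and −7.5 for Casr. Without replicate 1 of the TKO EpiLCs, the adjusted p was 1 for Foxb1, 0.166 for Cyp26c1 and 0.191 for Cdh6, so that these 3 genes were no longer called. Where a group was near 0 counts, these values depend on the prior count of the fit and are no bounds. Examples are wild-type day 2 cells for Taf7l, TKO EpiLCs for Gm21761, wild-type EpiLCs for Cyp26c1 and day 2 TKO cells for Foxb1. Gm21761 also started from unlike levels, 0.992 and 1.10 normalised counts in TKO EpiLCs and 54.6 and 46.1 in wild-type EpiLCs.

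Gnat1, the rod transducin subunit gene, had 729 and 1007 normalised counts in the 2 libraries of day 6 TKO cells without cytokines, which enter no test of a difference in the report. It had 2.27 and 6.21 in day 2 TKO cells with cytokines.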

How the results depend on the processing

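From TKO EpiLCs to day 2 with cytokines, counts of higher and lower genes were 519 and 256 with DESeq2, 418 and 207 in a model of the compared libraries alone, 417 and 185 without the TKO libraries without cytokines (chosen after seeing the data), 960 and 684 at a log2 fold change beyond 1, and 332 and 139 at an adjusted p below 0.01. Leaving out 1 library gave 375 to 440 and 148 to 236. Of 487 listed or named genes 175 were called at any fold, 112 of them under every alternative run, and their direction did not reverse.

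With against without cytokines, higher and lower genes were 15 and 624 with library size alone, 43 and 377 in the model of the compared libraries alone, 191 and 366 beyond 1, and 13 and 85 at 0.01. Without the filter on low counts 41 were higher. Leaving out 1 library gave 9 to 17 and 41 to 128. Library size alone moved the median of all genes by −0.48 here and by −0.53 in the comparison with wild-type cells, where 1282 were then lower. There the counts were 1077 and 1300 beyond 1, 413 and 407 at 0.01, and 484 to 685 and 506 to 692 without 1 library. From day 2 to day 6 they were 623 and 190 beyond 1, 169 and 33 at 0.01, 242 higher without the TKO libraries without cytokines, and 110 to 259 and 22 to 60 without 1 library. The cause of these shifts was not tested.

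With the replicate block, the 4 pairs of counts were 510 and 235, 25 and 227, 649 and 662, and 351 and 58. It ended the calls of Gsc (adjusted p = 0.0526) and Id2 (adjusted p = 0.0562). The deviations of same-numbered TKO EpiLC and day 2 libraries with cytokines had a correlation of 0.18 over genes, and with 2 pairs the libraries share only a number. Groups of 2 libraries, from 1 clone, and ribosomal RNA of up to 47.6% of counts limit what could be detected for low genes.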

Other observations

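Some gene families held several of the genes that rose from TKO EpiLCs to day 2 with cytokines. Of 55 keratin, 31 Rhox homeobox and 45 collagen genes, 19, 5 and 44 had enough counts to be tested. By the limits of the report, 5 of the 19, 2 of the 5 and 3 of the 44 were higher, against 3.08% of all genes tested. A gene low in most groups is tested only through a group where it is high, which can raise such shares. Some of these genes are also members of the lists. Of 313 tested solute carrier genes 12 were higher and 11 lower, with a median log2 fold change of −0.09. Of the 501 higher genes with a position 25 lay on the X chromosome (4.99%), against 620 of 16496 tested genes (3.76%). These families were looked at after the values had been seen.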
